A study of Mus musculus with 72 samples.

Results

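Cholesterol synthesis and its control were followed through 27 genes in mouse interfollicular epidermis, the stratified outer layer of skin outside the follicles. They were 18 enzymes of the pathway, 4 regulators of sterol sensing and pathway control, 3 genes of sterol transport and receptor turnover, and 2 exporters. The genes were taken by symbol from the 46078 genes in the count tables, and all 27 passed the filter on low counts that left 18538 genes for testing. The animals were C57BL/6 females of 8 weeks, moved into constant darkness at 7 weeks of age and held there for 156 to 176 h. WT animals carried K14-Cre, a Cre recombinase driven by the keratin 14 promoter of basal keratinocytes. KO animals carried Bmal1-stopFL, an allele in which a cassette blocks the clock gene Arntl (Bmal1), and no Cre. RE animals carried Bmal1-stopFL together with K14-Cre, so that Arntl was restored in keratin 14 cells and stayed blocked in the rest of the body. KO is thus the only genotype without Cre, and the effects of Arntl and of Cre cannot be told apart in comparisons with KO. Each genotype had 24 libraries from separate mice, 4 at each of 6 time points.

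Cells make cholesterol from acetyl-CoA. An isoprenoid stage builds farnesyl diphosphate through mevalonate, squalene is then formed and closed into the ring system of lanosterol, and a series of demethylations, reductions and desaturations turns lanosterol into cholesterol. The pathway is governed by the membrane-bound transcription factor SREBP2: when sterols are low, the escort protein SCAP carries it to the Golgi, where it is cut and released to switch on the enzyme genes, and when sterols are high the INSIG proteins hold SCAP back. An opposite arm runs through the LXR receptors, which respond to oxysterols and raise genes of cholesterol export. The epidermis makes much of its own cholesterol, which together with ceramides and fatty acids forms the lipid barrier of the cornified layer, and a precursor of cholesterol in the skin also gives vitamin D.

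Library totals lay between 24.5 and 95 M counts, with a median of 35.4 M. Arntl itself spanned 18.1 to 99.2 CPM (counts scaled to a common library size with TMM factors) in WT, 26.1 to 35.1 CPM in KO and 47.1 to 76.2 CPM in RE: the KO and RE ranges did not overlap. Keratinocyte markers dominated all genotypes: the summed level of 9 of them ran from 31180 to 44750 CPM in WT, 31210 to 49630 CPM in KO and 31190 to 45620 CPM in RE, with Flg under a mean of 1 CPM. A few libraries stood apart at time point 6, namely replicate 4 of WT, replicate 4 of KO and replicate 1 of RE. They had the highest sums of sebaceous gland, hair follicle and erythrocyte markers of their genotype. Their mitochondrial shares of counts, 8.36%, 5.47% and 5.94%, were also the highest of their genotype. Replicate 2 of WT at time point 6 had 5.7% and was not set apart. The sums of 14 sebaceous gland markers ran from 873.8 to 1733 CPM in WT, 990.9 to 3153 CPM in KO and 840 to 2063 CPM in RE. Krt79 and Acsbg1 weighed most in these sums, with 1289709 and 1076246 counts over all libraries, against 3498 for Mc5r and 5029 for Awat2. Taken singly, 3 of the 14 had a positive log2 difference between KO and WT, and the median was -0.38. The 12 hair follicle markers summed to 61.5 to 153 CPM in WT, 63.8 to 265 CPM in KO and 62.4 to 188 CPM in RE. Results that rest on these libraries are given with and without them. In bulk tissue, fewer cells of a type and less RNA per cell cannot be told apart.

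In WT the gene with the highest level per length was Hmgcs1, cytosolic HMG-CoA synthase, at a mean of 106 CPM per kb of annotated exon. It was followed by Srebf2, the gene of SREBP2, at 31.8 CPM per kb, Mvk (mevalonate kinase) at 25.3 and Pmvk (phosphomevalonate kinase) at 24.7 CPM per kb. The lowest were the sterol reductase Tm7sf2 at 2.48 CPM per kb and the exporter Abcg1 at 4.66 CPM per kb. Spread between WT animals also differed by gene: the coefficient of variation over 24 animals was 4.54% for the escort Scap and 7.71% for Srebf2, but 34.9% for Idi1 (isopentenyl diphosphate isomerase) and 42.0% for Insig1, a sterol-sensing retention protein that is itself a target of SREBP2. Without replicate 4 of time point 6, an alternative chosen after seeing the data, it was 16.8% for Idi1 and 29.4% for Insig1 over 23 animals, against 4.64% for Scap and 6.28% for Srebf2. Neighbouring levels such as those of Mvk and Pmvk lie closer than the spread between animals.

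Promoter windows of 300 bases (250 before to 50 after the start, RefSeq, GRCm38.p6) were available for 21 of the 27 genes, 15 of them enzymes. The windows of Hmgcs1 (chr13:119690101-119690400, plus strand), Insig1 (chr5:28071162-28071461, plus strand), Sc5d (chr9:42264251-42264550, minus strand) and Hsd17b7 (chr1:169969156-169969455, minus strand) are shown because they hold matches to elements known from sterol or clock control. Capitals mark the SREBP element in its strict form TCACNCCAC or looser form CACNCCAC, the E-box CACGTG that BMAL1 and its partner CLOCK can bind, and the CCAAT box bound by NF-Y, a cofactor of SREBP at sterol-regulated promoters, each on either strand.
Hmgcs1: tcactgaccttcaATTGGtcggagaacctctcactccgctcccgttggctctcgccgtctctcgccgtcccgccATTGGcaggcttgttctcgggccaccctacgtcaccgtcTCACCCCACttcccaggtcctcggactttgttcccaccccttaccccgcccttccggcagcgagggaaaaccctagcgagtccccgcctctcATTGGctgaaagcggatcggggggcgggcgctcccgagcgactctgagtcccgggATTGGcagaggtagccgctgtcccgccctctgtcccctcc
Insig1: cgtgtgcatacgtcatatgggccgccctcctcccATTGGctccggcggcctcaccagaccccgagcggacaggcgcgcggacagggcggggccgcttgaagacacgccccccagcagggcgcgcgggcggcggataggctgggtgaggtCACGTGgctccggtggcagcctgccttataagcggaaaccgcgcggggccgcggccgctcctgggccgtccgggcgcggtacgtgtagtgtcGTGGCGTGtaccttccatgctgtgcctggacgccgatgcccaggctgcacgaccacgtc
Sc5d: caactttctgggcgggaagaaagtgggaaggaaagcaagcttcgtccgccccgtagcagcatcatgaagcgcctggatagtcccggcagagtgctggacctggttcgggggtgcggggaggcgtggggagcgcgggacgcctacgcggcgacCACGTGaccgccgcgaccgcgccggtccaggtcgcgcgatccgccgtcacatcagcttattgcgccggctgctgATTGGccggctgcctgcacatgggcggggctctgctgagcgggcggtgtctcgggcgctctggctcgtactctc
Hsd17b7: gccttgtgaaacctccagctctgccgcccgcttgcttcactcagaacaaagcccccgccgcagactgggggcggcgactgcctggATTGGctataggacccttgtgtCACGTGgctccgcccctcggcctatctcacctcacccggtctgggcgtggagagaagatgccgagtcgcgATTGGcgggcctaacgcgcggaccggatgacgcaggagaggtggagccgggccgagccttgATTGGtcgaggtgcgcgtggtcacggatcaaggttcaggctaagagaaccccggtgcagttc
The strict SREBP element was found in the window of Hmgcs1 alone among the 21, against 1.14% of 11884 windows, 1 for each tested gene with an entry. The looser form, which contains every strict match, was in 3 of 21 (Acat2, Hmgcs1 and Insig1), against 6.36% of all windows. E-boxes were in 5 of 21 (Hsd17b7, Sc5d, Scap, Insig1 and Abca1), against 9.6%. CCAAT boxes were in 17 of 21 and in 13 of the 15 enzyme windows, against 38.2% of all windows. The D-box TTATGTAA, an element of clock output factors, was in none of the 21, against 0.547%. These matches describe the letters of the window and are not binding sites measured in this tissue.

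Most of the pathway had a higher mean level in KO than in WT. Over the 6 time points 18 of the 27 genes differed, all of them higher in KO, against 28.2% of all tested genes that differed, 14.6% higher and 13.6% lower (edgeR quasi-likelihood F test, Benjamini-Hochberg adjusted p under 0.05). Of the 27 genes 24 had a positive log2 difference, with a median of 0.27, whereas the median over all tested genes was -0.003. The summed level of the 18 enzymes was 1277 CPM in the lowest, 1407 in the median and 2395 in the highest WT animal. In KO these values were 1113, 1876 and 3809 CPM, and in RE 1174, 1533 and 2196 CPM. The ranges overlapped: 22 of 24 KO animals lay above the WT median and 1 lay above the highest WT animal. Without the 3 libraries that stood apart, an alternative chosen after seeing the data, the highest WT animal had 1673 CPM and 15 of 23 KO animals and 9 of 23 RE animals lay above it. The KO and WT means were close at time point 4. There the sum was 1500 ± 400 CPM in KO, from 1113 to 2022, and 1454 ± 55.5 CPM in WT, from 1405 to 1532 (mean ± SD, n = 4).

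**Figure D1:**
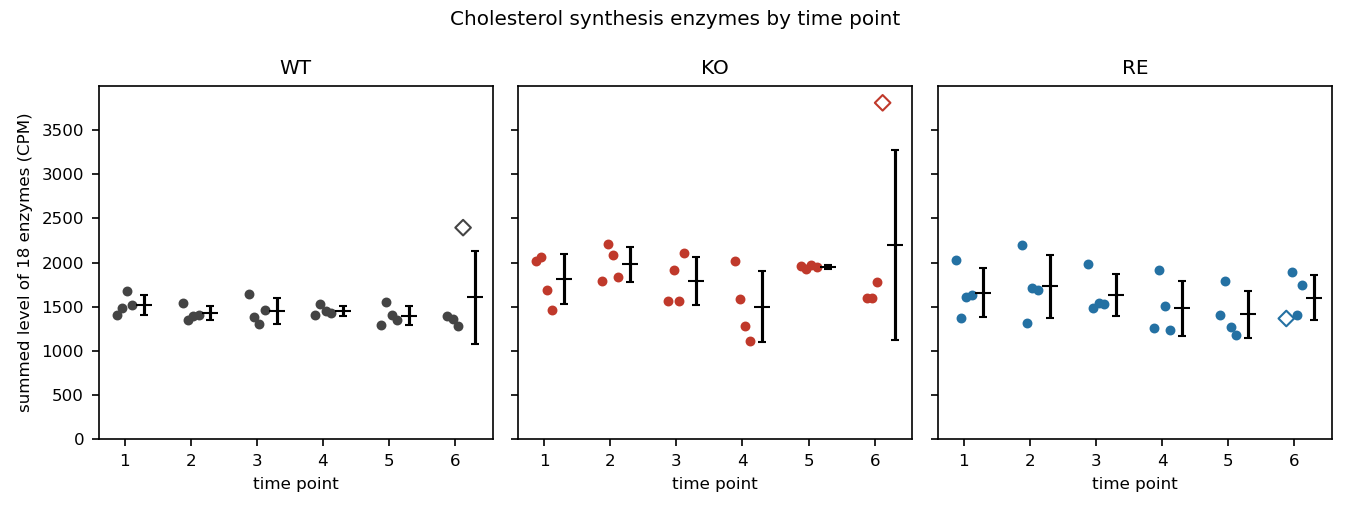
Summed level of the 18 cholesterol synthesis enzymes in CPM (vertical axis) against time point (horizontal axis) for WT, KO and RE. Each filled point is an animal, open diamonds are the 3 libraries that stood apart at time point 6, and bars give the mean ± SD of 4 animals. The diamond in KO reaches 3809 CPM and that in WT 2395 CPM, while the other KO animals lie between 1113 and 2207 CPM. The diamond in RE lies at 1366 CPM, the lowest of its group.

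In the isoprenoid stage 6 of 7 enzymes were higher in KO. Fdps, farnesyl diphosphate synthase, which supplies sterols and protein prenylation, had 25.9, 31.5 and 73.0 CPM in the lowest, median and highest WT animal and 22.6, 46.1 and 146 CPM in KO. Its difference was the largest of the 27, 0.59 ± 0.11 on the log2 scale (standard error, n = 24 per genotype; 1.51-fold, adjusted p = 3.12e-05 by edgeR). Its counts are uncertain, since 26.7% of its exon bases are shared with Gm43738 on the same strand. Pmvk ran from 35.6 through 41.6 to 73.0 CPM in WT and from 40.8 through 60.3 to 149.5 CPM in KO, a difference of 0.54 ± 0.08 (adjusted p = 8.67e-08). For both genes KO was higher at all 6 time points and 22 of 24 KO animals exceeded the WT median, although the ranges overlapped. Mvk had 52.0, 67.3 and 116 CPM in WT and 54.2, 88.0 and 192 CPM in KO (0.39 ± 0.08, adjusted p = 4.05e-05). Idi1 had 48.7, 69.7 and 188 CPM in WT and 41.3, 99.5 and 258 CPM in KO (0.41 ± 0.13, adjusted p = 0.00988). Mvd, mevalonate diphosphate decarboxylase, had 18.5, 22.7 and 53.5 CPM in WT and 13.7, 31.1 and 100.4 CPM in KO (0.39 ± 0.12, adjusted p = 0.0107). The upper end of each range was the time point 6 library that stood apart. Hmgcs1, at the entry of the stage, differed less (0.25 ± 0.06, adjusted p = 0.00257), with 386, 489.8 and 619 CPM in WT and 422, 571 and 869.8 CPM in KO, where 8 of 24 KO animals exceeded every WT animal. An antisense gene overlaps 12.1% of its exon bases. Acat2, the cytosolic thiolase that joins acetyl-CoA units, did not pass the test (0.16 ± 0.09, adjusted p = 0.202).

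**Figure D2:**
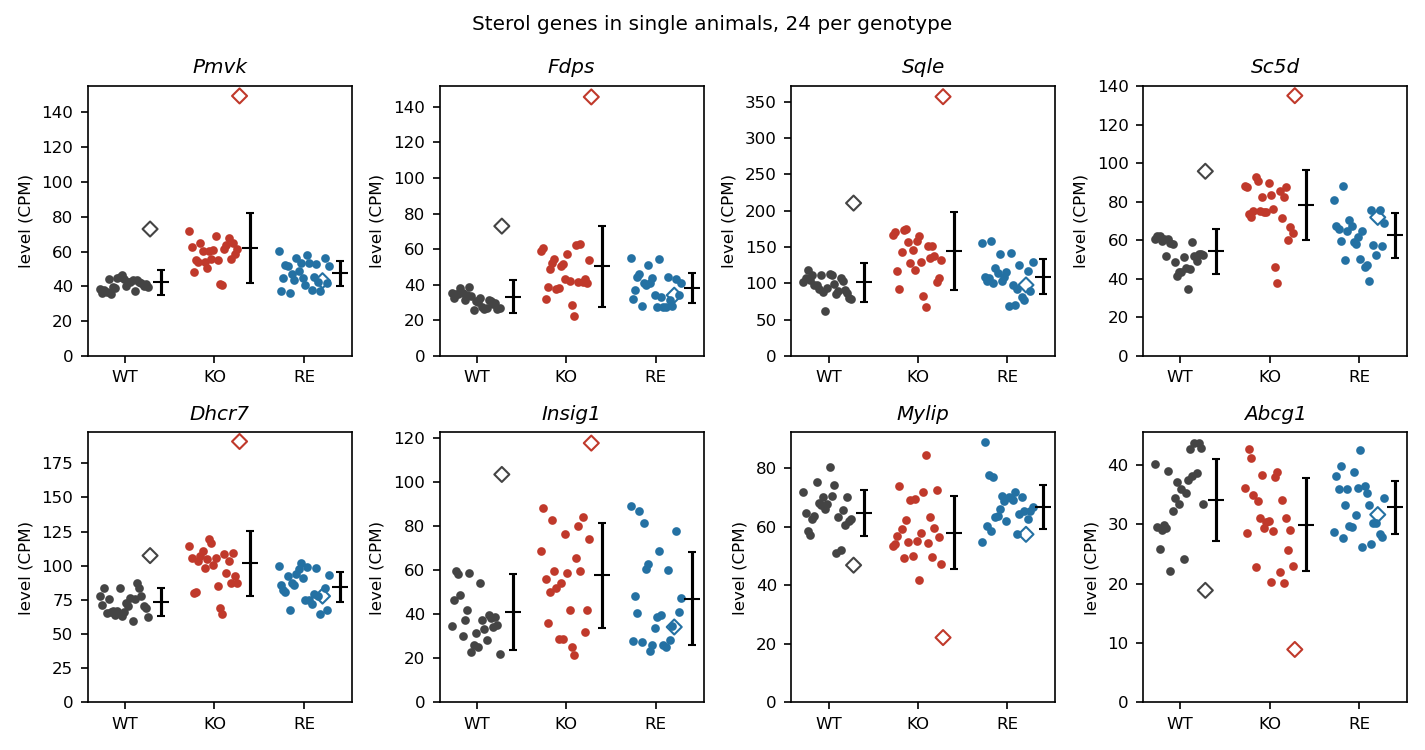
Levels in CPM (vertical axis, from 0) of 8 sterol genes in every animal of WT, KO and RE (horizontal axis, 24 animals each, in order of time point within a genotype). Open diamonds are the 3 libraries that stood apart, and bars give mean ± SD. For Pmvk, Fdps, Sqle, Sc5d and Dhcr7 the KO median lies above that of WT with the RE median between them, for Insig1 the genotypes overlap widely, and Mylip and Abcg1 are lowest in the KO diamond at 22.1 and 8.91 CPM.

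All 3 enzymes that form squalene and close the ring were higher in KO. Sqle, squalene epoxidase, a rate-limiting step of the sterol branch, had 62.4, 98.6 and 210.4 CPM in the lowest, median and highest WT animal and 66.8, 140.3 and 357 CPM in KO, a log2 difference of 0.50 ± 0.11 (adjusted p = 1.77e-04). Lss, lanosterol synthase, had 42.7, 68.5 and 119 CPM in WT and 60.7, 88.7 and 226 CPM in KO (0.42 ± 0.09, adjusted p = 3.15e-04). KO was higher for both at every time point. Fdft1, squalene synthase, the branch point towards sterols, differed by 0.27 ± 0.09 (adjusted p = 0.0232), with 60.1, 78.2 and 113 CPM in WT and 50.4, 92.5 and 189 CPM in KO. That call was lost on omitting KO replicate 4 of time point 6 alone (adjusted p = 0.0721) and held without all 3 libraries that stood apart (0.23, adjusted p = 0.0258). In addition, 18.3% of the exon bases of Fdft1 overlap Ctsb on the opposite strand, so its counts are uncertain unless strand was used.

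Of the 8 enzymes that turn lanosterol into cholesterol 6 were higher in KO. Sc5d, a sterol desaturase, had 34.8, 52.7 and 95.8 CPM in the lowest, median and highest WT animal and 37.7, 75.7 and 135 CPM in KO, a log2 difference of 0.53 ± 0.08 (adjusted p = 1.70e-07). Dhcr7, the reductase that makes cholesterol from the sterol that is also the vitamin D precursor, had 59.5, 71.0 and 107 CPM in WT and 64.8, 103 and 191 CPM in KO (0.47 ± 0.07, adjusted p = 1.04e-07). Msmo1, a methylsterol oxidase, had 65.5, 87.5 and 186 CPM in WT and 52.4, 125 and 308 CPM in KO (0.46 ± 0.12, adjusted p = 0.00178). For these 3 genes KO was higher at all 6 time points, and 22, 22 and 21 of 24 KO animals exceeded the WT median. The demethylase Cyp51 had 76.3, 99.6 and 181 CPM in WT and 59.6, 123 and 304 CPM in KO (0.32 ± 0.11, adjusted p = 0.0169). Its adjusted p was 0.0619 on omitting KO replicate 4 of time point 6 alone and 0.0154 without all 3 libraries that stood apart. Nsdhl, a sterol dehydrogenase, had 24.7, 30.0 and 44.1 CPM in WT and 22.0, 37.7 and 77.9 CPM in KO (0.30 ± 0.07, adjusted p = 0.00138). Tm7sf2 had 8.77, 10.3 and 17.8 CPM in WT and 8.81, 12.7 and 28.2 CPM in KO (0.27 ± 0.07, adjusted p = 0.00155). It shares 12.1% of its exon bases with Vps51 on the same strand, so its counts are uncertain. The ketosteroid reductase Hsd17b7 (0.04 ± 0.08, adjusted p = 0.756) and the sterol isomerase Ebp (0.09 ± 0.06, adjusted p = 0.265) did not pass the test.

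Of the 4 genes that control the pathway 3 were higher in KO. Srebf2 had 203, 224 and 279 CPM in the lowest, median and highest WT animal and 171, 262 and 358 CPM in KO, a log2 difference of 0.19 ± 0.06 (adjusted p = 0.00784). Insig1 had 22.0, 37.4 and 103 CPM in WT and 21.5, 57.4 and 118 CPM in KO (0.48 ± 0.16, adjusted p = 0.0205). Insig2, its paralog, had 44.4, 54.0 and 62.5 CPM in WT and 47.5, 59.2 and 91.9 CPM in KO (0.18 ± 0.05, adjusted p = 0.00370). The KO and WT ranges overlapped for each of them, with 9, 1 and 8 of 24 KO animals above the highest WT animal. Scap, the escort, missed the threshold at 0.05 ± 0.02 (adjusted p = 0.0587). Not every called gene was higher in KO throughout. At time point 4 the KO mean lay below the WT mean for Hmgcs1, Idi1, Mvd, Fdft1, Cyp51, Srebf2 and Insig1. For Cyp51 these means were 101 CPM in KO and 107 CPM in WT.

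None of the 5 genes of transport, receptor turnover and export passed the test between KO and WT. Stard4, a cytosolic sterol carrier regulated by SREBP2, had a log2 difference of 0.20 ± 0.10 (adjusted p = 0.155), and Npc1, which exports cholesterol from lysosomes, 0.06 ± 0.07 (adjusted p = 0.556). The 3 LXR-regulated genes had negative values. Mylip, a ubiquitin ligase that sends lipoprotein receptors to degradation, had -0.16 ± 0.07 (adjusted p = 0.0731), the exporter Abcg1 -0.19 ± 0.09 (adjusted p = 0.116) and the exporter Abca1 -0.16 ± 0.11 (adjusted p = 0.320). Mylip was lower in KO at all 6 time points, with 46.8, 65.2 and 80.5 CPM in the lowest, median and highest WT animal and 22.1, 56.7 and 84.6 CPM in KO.

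**Figure D3:**
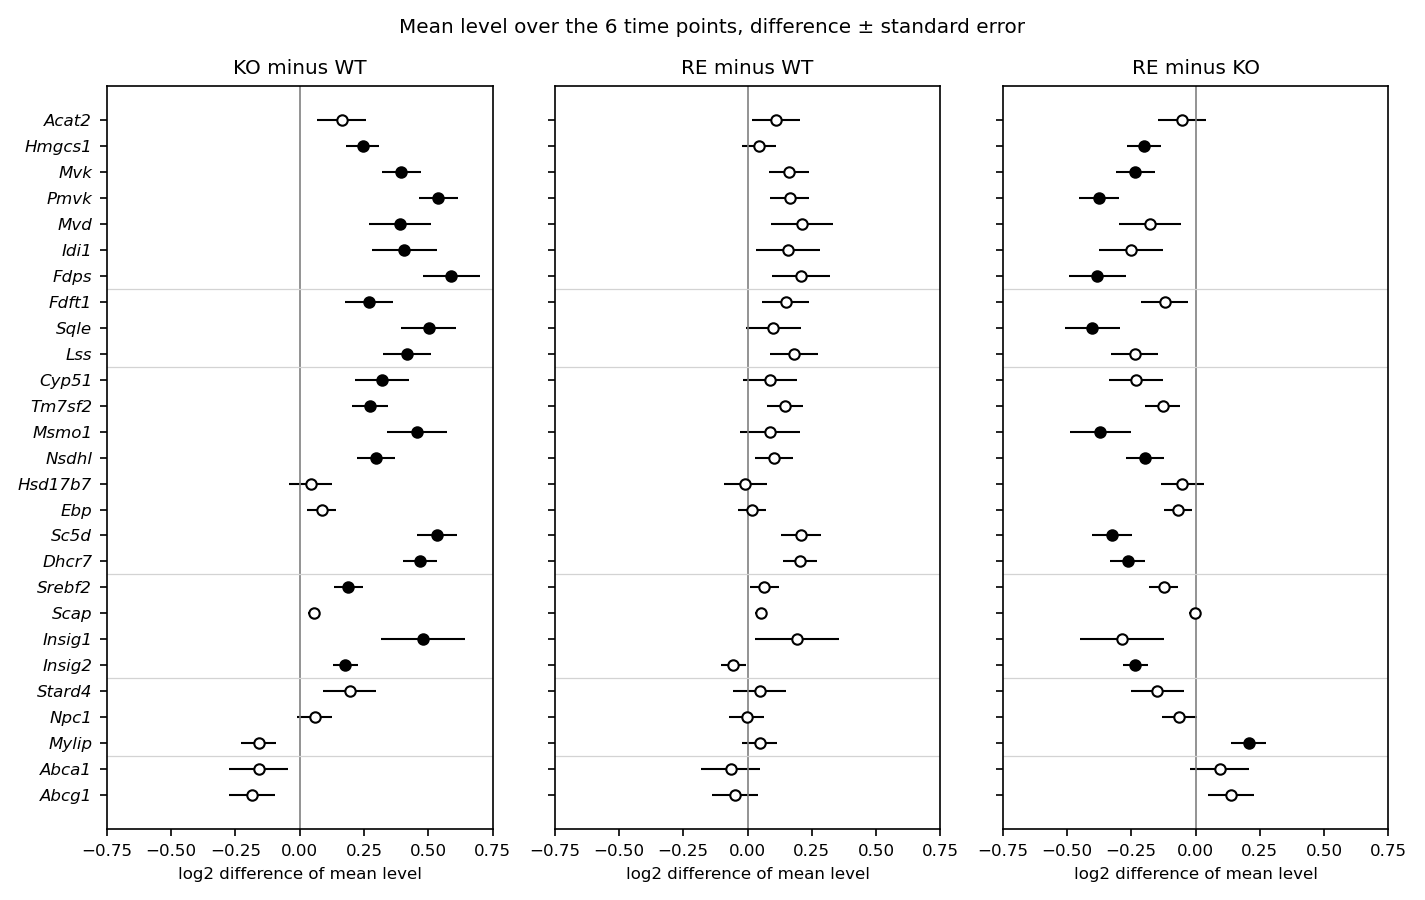
Log2 difference of the mean level over the 6 time points (horizontal axis, point and standard error) for each of the 27 genes (vertical axis, grouped by role from the isoprenoid stage to export) between KO and WT, RE and WT, and RE and KO. Filled points have an adjusted p under 0.05. Filled points lie on the right in the first panel (18 genes), are missing from the second, and lie on the left in the third except for Mylip (11 genes).

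Without the 3 libraries that stood apart the number of genes higher in KO than in WT was again 18, against 14.5% of all tested genes higher and 14.7% lower. Leaving out single libraries gave 16 to 20, the lowest on omitting KO replicate 4 of time point 6. The count fell to 11 without time point 3 and to 10 without time point 5. Markers of differentiating keratinocytes moved in the same direction: Krt1 differed by 0.45 ± 0.09 (adjusted p = 1.40e-04), Krt10 by 0.43 ± 0.09 (adjusted p = 1.49e-04), Lor by 0.72 ± 0.23 (adjusted p = 0.0135) and Ivl by 0.81 ± 0.13 (adjusted p = 1.93e-06), all higher in KO, and the basal integrin Itga6 by -0.29 ± 0.10 (adjusted p = 0.0158). Of 8 tested keratinocyte markers these were the called ones, 4 higher and 1 lower. The other 3, the keratins Krt5, Krt14 and Krt15, did not pass the test. Among 14 sebaceous gland markers 2 were higher and 5 lower in KO, among 12 hair follicle markers 2 were higher and 5 lower, and 3 of 5 erythrocyte markers were higher. Of 7 melanocyte markers 5 were lower and none higher, with a median log2 difference of -0.73, and of 8 markers of dendritic epidermal T cells 2 were lower and none higher, with a median of -0.31. Their part in the sterol gene differences was not tested.

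Restoring Arntl in keratinocytes was examined against WT and against KO, and the comparisons share the libraries of RE. Between RE and WT none of the 27 genes passed edgeR's test. Of all tested genes 4.03% were called, 2.07% higher and 1.96% lower in RE. DESeq2 called none of the 27 either. Unadjusted p under 0.05 by edgeR was found for 6 of the 27, against 3176 of 18538 tested genes. The median log2 difference of the 27 was 0.10, and that of all tested genes 0.01. The RE median lay between those of WT and KO for 17 of the 18 enzymes and below both for Hmgcs1. This position was not counted over all genes, and the enzymes varied together between animals, so they are not 18 independent observations. Pmvk had 36.4, 46.1 and 60.1 CPM in the lowest, median and highest RE animal (0.16 ± 0.08 above WT, adjusted p = 0.253), Sc5d 38.8, 63.2 and 88.3 CPM (0.21 ± 0.08, adjusted p = 0.122) and Dhcr7 64.7, 84.8 and 102 CPM (0.20 ± 0.07, adjusted p = 0.0692). This result depended on the libraries that stood apart. Without them 7 enzymes were higher in RE than in WT, while the calls over all tested genes rose to 6.36%, 3.09% higher and 3.27% lower. The 7 were Mvk (0.20, adjusted p = 0.0214), Pmvk (0.22, adjusted p = 0.00527), Fdps (0.29, adjusted p = 0.0253), Lss (0.24, adjusted p = 0.0394), Tm7sf2 (0.18, adjusted p = 0.0205), Sc5d (0.24, adjusted p = 0.0223) and Dhcr7 (0.23, adjusted p = 0.00527). Leaving out WT replicate 4 of time point 6 alone gave 2 called genes.

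Between RE and KO 11 of the 27 genes differed, 10 of them lower in RE and Mylip higher, against 22.5% of all tested genes, 11.5% higher and 11% lower. In the isoprenoid stage Hmgcs1 had 380.2, 476 and 749 CPM in the lowest, median and highest RE animal (-0.20 ± 0.06 on the log2 scale, adjusted p = 0.0193). Mvk had 55.1, 75.8 and 93.2 CPM (-0.23 ± 0.08, adjusted p = 0.0196). Fdps had 27.3, 38.5 and 55.1 CPM (-0.38 ± 0.11, adjusted p = 0.00897), and the difference of Pmvk was -0.38 ± 0.08 (adjusted p = 1.64e-04). For these 4 genes RE was lower than KO at all 6 time points, with overlapping ranges. Among the later enzymes, Sqle had 68.1, 108 and 158 CPM in RE (-0.40 ± 0.11, adjusted p = 0.00379). Msmo1 had 53.9, 92.1 and 155 CPM (-0.37 ± 0.12, adjusted p = 0.0161). Nsdhl had 23.0, 32.6 and 45.2 CPM (-0.20 ± 0.07, adjusted p = 0.0471). The enzymes of the last steps were lower too, Sc5d by -0.33 ± 0.08 (adjusted p = 0.00137) and Dhcr7 by -0.26 ± 0.07 (adjusted p = 0.00246). Of the regulators Insig2 was lower, with 43.2, 50.2 and 77.0 CPM in RE (-0.23 ± 0.05, adjusted p = 2.33e-04). No RE animal reached the KO median for Pmvk or Dhcr7. Mylip was higher in RE by 0.21 ± 0.07 (adjusted p = 0.0228), with 54.6, 65.7 and 88.8 CPM in RE, and 23 of 24 RE animals exceeded the KO median. The call of Nsdhl was lost on leaving out any of 25 libraries and that of Mvk on omitting KO replicate 4 of time point 6 (adjusted p = 0.0526). Without the 3 libraries that stood apart 9 genes differed, against 21.4% of all tested genes, Hmgcs1 (adjusted p = 0.0524) and Nsdhl (adjusted p = 0.133) being lost. The count was 3 without time point 2, 5 without time point 3 and 5 without time point 5, and the calls over all genes in those fits are not given here. Of 8 tested keratinocyte markers 2 were lower in RE than in KO as well and 0 higher. The 2 were Ivl and Krt10, by -0.78 ± 0.13 and -0.34 ± 0.09. Krt1, Lor and Itga6 did not pass between RE and KO, and the part of these markers was not tested.

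Rhythms after the days in darkness were tested in each genotype. A 24 h cosine was called in 1 of 27 genes in WT, in none in KO and in none in RE. The shares of all tested genes called were 11%, 5.87% and 2.7%. Unadjusted p under 0.05 by edgeR was found for 2, 7 and 2 of the 27, against 4683, 4306 and 3006 of 18538 tested genes. With 27 genes the counts of called genes do not set the pathway apart from the shares over all genes. The called gene was Sc5d, whose means ± SD of 4 WT animals at time points 1 to 6 were 61.0 ± 1.25, 57.9 ± 4.26, 47.9 ± 7.41, 43.8 ± 6.86, 51.2 ± 6.05 and 63.6 ± 21.5 CPM. Levels were lowest at time point 4. The high mean at time point 6 came from replicate 4, one of the libraries that stood apart, at 95.8 CPM, while the other 3 animals had 52.5 to 53.1 CPM, below the means of time points 1 and 2. The fitted swing from trough to peak was 0.53 ± 0.16 on the log2 scale, with the peak 23.0 h after time point 1 if time points are 4 h apart (adjusted p = 0.0484). At the same scale the swing in KO was 0.27 ± 0.16 (adjusted p = 0.473) and in RE 0.41 ± 0.16 (adjusted p = 0.278). The WT call was lost on leaving out any of 26 libraries, reaching an adjusted p of 0.111 without replicate 4 of time point 4, and also without the 3 libraries that stood apart (adjusted p = 0.0539). For comparison, the clock output gene Dbp ran from 1.87 to 148 CPM in WT, 4.07 to 7.23 CPM in KO and 8.01 to 60.1 CPM in RE.

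No gene of the 27 differed in its rhythm between genotypes. Between KO and WT 6.2% of all tested genes were called and 1 of the 27, Abcg1, had an unadjusted p under 0.05 (0.0201, adjusted p = 0.140). Over all 18538 tested genes 4124 had one. Between RE and WT 2.17% of all tested genes were called. No gene of the 27 had an unadjusted p under 0.05 there, against 2689 of all tested genes. Between RE and KO no gene at all was called (0%, 364 genes with an unadjusted p under 0.05). DESeq2 called none of the 27 in any of the 3 comparisons. A model with a mean for every time point finds changes of any shape. In it 0 of 27 genes differed between time points in WT, 0 in KO and 1 in RE. The shares of all tested genes were 11%, 6.42% and 6%. Unadjusted p under 0.05 by edgeR was found for 0, 10 and 1 of the 27, against 4663, 4825 and 4282 of 18538 tested genes. DESeq2 called 0, 4 and 1 of the 27, and its share over all genes is not given here. The gene in RE was Scap (adjusted p = 0.0135), with 182 ± 6.43, 182 ± 7.63, 195 ± 4.72, 182 ± 5.42, 184 ± 5.95 and 164 ± 12.6 CPM at time points 1 to 6 (mean ± SD, n = 4). It was highest at time point 3 and lowest at time point 6, and the call was lost without replicate 3 (adjusted p = 0.0848) or replicate 4 (adjusted p = 0.0531) of time point 6.

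**Figure D4:**
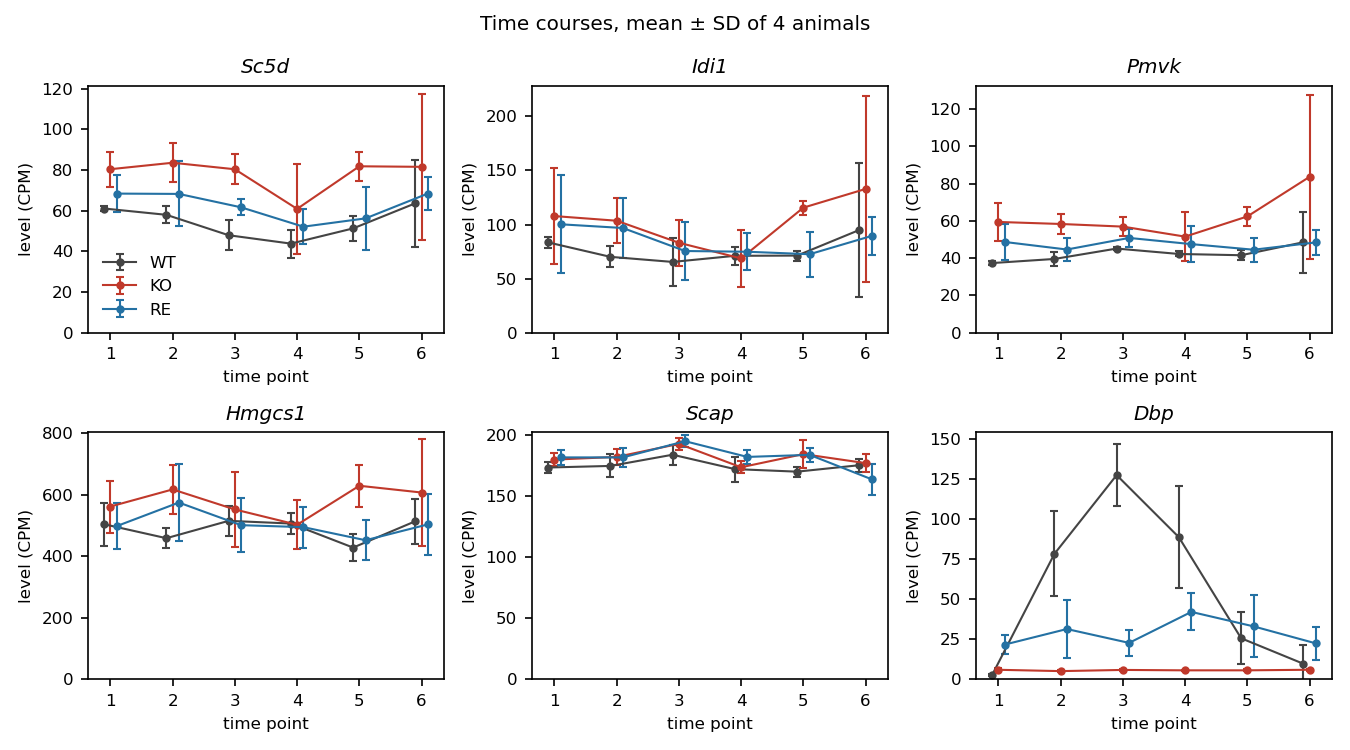
Levels in CPM (vertical axis, from 0) at the 6 time points (horizontal axis) of 5 sterol genes and, for comparison, the clock output Dbp, as mean ± SD of 4 animals for WT, KO and RE. The WT curve of Dbp rises far above the others, whereas for Sc5d and Pmvk the KO curve lies above the WT curve at every time point.

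Animals of the same genotype and time point differed from each other along the pathway as a whole. Each gene's log2 level was expressed as the deviation from its group mean. The 153 pairs among the 18 enzymes then had a median Pearson r of 0.758 over 72 libraries, with 136 pairs above 0.5 and none below 0. Over all pairs of tested genes the median was -0.002, and 3.52% of pairs lay above 0.5. These values are descriptions without a test, since the points share libraries, depth and cell composition. The closest pair was Sqle with Msmo1 (r = 0.947). The regulators Srebf2 (median r with the 18 enzymes 0.764) and Insig1 (0.720) and the sterol carrier Stard4 (0.789) moved with the enzymes. For the regulators Scap (-0.04) and Insig2 (0.08) the medians lay near 0.

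Genes of the LXR arm and Npc1 moved the other way. The median r with the enzymes was -0.699 for Abcg1, -0.655 for Mylip, -0.515 for Abca1 and -0.481 for Npc1, and each of these 4 had a negative r with all 18 enzymes. Abca1 and Abcg1 were positively related to each other (r = 0.614). Over the 69 libraries without the 3 that stood apart, 109 enzyme pairs lay above 0.5 and 3 below 0, the lowest at -0.213. Of all pairs of tested genes 3.245% lay above 0.5 in those libraries. There the median r was 0.638 among the enzymes, 0.700 for Srebf2, 0.652 for Insig1 and 0.689 for Stard4, and was -0.481 for Abcg1, -0.494 for Mylip, -0.345 for Abca1, where 17 of 18 values stayed negative, and -0.412 for Npc1. That of Scap was 0.05, and that of Insig2 changed sign to -0.21, with 17 of 18 values negative. Tm7sf2 was the enzyme that followed the others least, with a median r of 0.494 over all libraries and 0.143 without those 3.

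**Figure D5:**
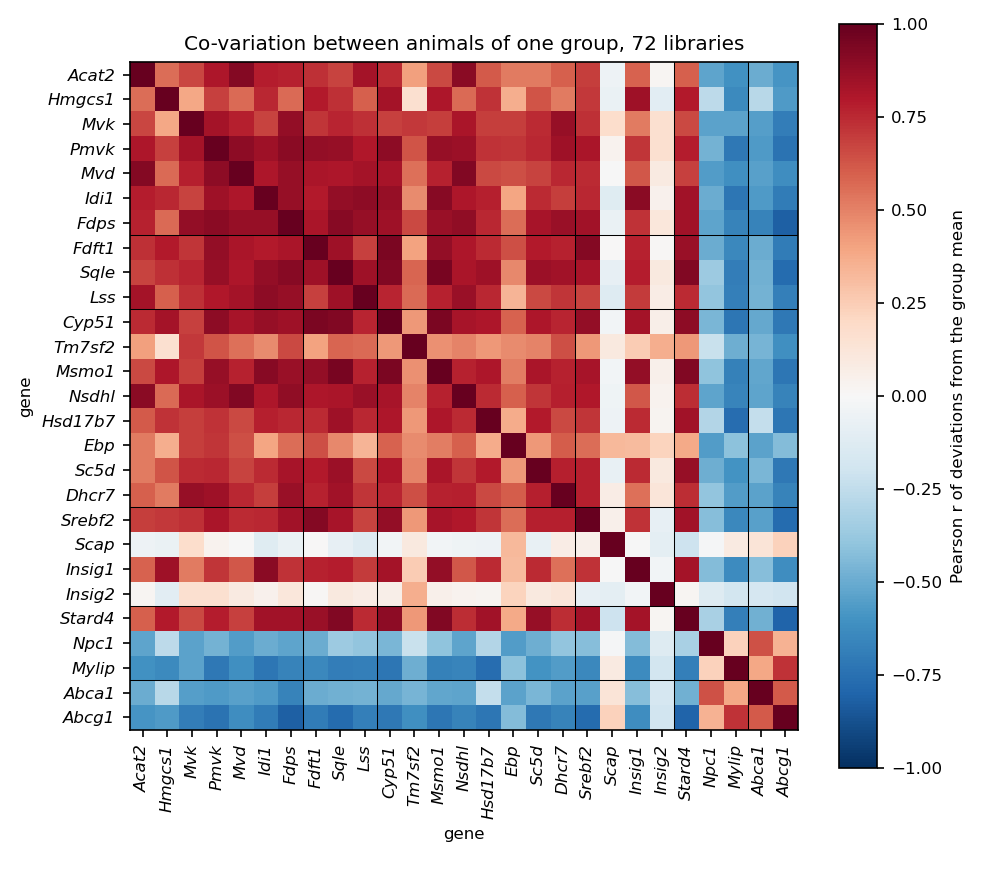
Pearson r (colour, from -1 in blue to 1 in red) between the deviations of the 27 genes from their group means over 72 libraries, with genes in the order of their roles on both axes and lines between roles. The block of 18 enzymes at the upper left is red throughout, Srebf2, Insig1 and Stard4 continue it, and Npc1, Mylip, Abca1 and Abcg1 form blue bands against the enzymes.

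Related genes outside the 27 were counted in lists, to be read against the 28.2% of all tested genes that differed between KO and WT, 14.6% higher and 13.6% lower. Among 12 genes of acetyl-CoA supply and the isoprenoid branch 3 were higher and 2 lower in KO: Acly, which makes cytosolic acetyl-CoA, differed by 0.25 ± 0.07 (adjusted p = 0.00203), and Acat1, the mitochondrial thiolase, by 0.18 ± 0.04 (adjusted p = 7.12e-04). Of 7 further late sterol enzymes and electron donors 1 was higher, Erg28 (0.16 ± 0.06, adjusted p = 0.0354), a scaffold of sterol demethylation in yeast. In the 12 genes of SREBP processing and sterol-dependent turnover 3 were higher and 1 lower. The lower gene was Rnf145, an LXR-regulated ubiquitin ligase that acts on the sterol-sensing machinery, with means of 121 CPM in WT, 95.2 CPM in KO and 104 CPM in RE. Its log2 difference was -0.34 ± 0.05 between KO and WT (adjusted p = 5.03e-07) and -0.20 ± 0.05 between RE and WT (adjusted p = 0.0117).

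Among 22 genes of LXR, sterol uptake, transport and storage 5 were higher and 4 lower in KO, with the lipoprotein receptor Vldlr at 0.56 ± 0.11 (adjusted p = 2.66e-05) and the phospholipid transfer protein Pltp at -0.36 ± 0.09 (adjusted p = 0.00141). Of 6 tested oxysterol and steroid-modifying enzymes 2 were higher, the sterol hydroxylase Cyp27a1 (0.52 ± 0.11, adjusted p = 1.48e-04) and the cholesterol sulfotransferase Sult2b1 (0.39 ± 0.09, adjusted p = 4.38e-04), and the oxysterol hydroxylase Cyp39a1 was lower (-0.22 ± 0.06, adjusted p = 0.00116). The fatty acid genes split: of 12 tested 3 were higher and 3 lower, among them the desaturase Scd2 at 0.86 ± 0.15 (adjusted p = 6.37e-06), the elongase Elovl5 at -0.54 ± 0.09 (adjusted p = 3.18e-06) and the mitochondrial acetyl-CoA carboxylase Acacb at -0.63 ± 0.10 (adjusted p = 1.26e-06). Barrier lipid genes were higher in KO in 11 of 14, including the acylceramide enzyme Pnpla1 (0.52 ± 0.07, adjusted p = 8.67e-08) and the ceramide desaturase Degs1 (0.31 ± 0.05, adjusted p = 3.56e-06), and none was lower. Against KO, 10 of the 14 were lower in RE, where 11% of all tested genes were lower. Pnpla1 was the only barrier gene that also differed between RE and WT (0.39 ± 0.07, adjusted p = 3.15e-04).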

How the data were processed

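RNA-seq of interfollicular epidermis from 72 mice was analysed, 24 for each of the 3 genotypes. The deposited files hold raw counts per Ensembl gene for each library. The processing notes of the submitters name Trimmomatic, TopHat2 2.1.1, featureCounts and the build GRCm38 (mm10). Sources used here do not give the annotation, strand use or handling of multi-mapped reads, so counts of overlapping genes are uncertain. Symbols came from GENCODE M21, which matched 45143 of 46078 identifiers.

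From these counts, genes were kept by filterByExpr (18 groups of genotype and time point, minimum count 10), scaled by TMM and tested with edgeR 4.0.16 (R 4.3.3) by the robust quasi-likelihood F test. One model of all libraries gave each genotype a mean, cosine and sine of 24 h (63 residual degrees of freedom), and another gave each group a mean (54). Steps of 4 h between time points were assumed, since the labels give no hour. Adjusted p-values are Benjamini-Hochberg over 18538 genes, and those under 0.05 were called. Levels are CPM; the prior count for log2 CPM was 2. Levels per length divide by all exon bases of the gene in GENCODE. Alternatives were other scalings, filters, tests (DESeq2 1.42.0, limma voom 3.58.1), a replicate block, and fits without libraries, replicate numbers or time points. The tests were checked on simulated counts.

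In all 108 pairs of replicates counts differed by more than sampling noise (chi-square per gene 7.67 to 269). Same-numbered replicates of different groups were compared within each time point. Of 72 pairs 28 had a correlation of deviations above 0.1 and 11 below -0.1. Differently numbered replicates were not compared, so these values do not settle whether the numbers pair animals. The main models used no pairing.

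All 27 genes were named by rule, with up to 3 called genes for each related list. The genes and lists were chosen with earlier results of these data known.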

Additional observations from a re-analysis of the deposited data

Results flagged for a closer look

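In 43 of 486 sets of 4 animals (8.85%; chance gives about 1 in 20) a sterol gene's highest or lowest animal lay far from the other 3 by Dixon's criterion. Replicate 4 of KO at time point 6 was far above its group for 14 genes: Acat2 (73.4 CPM), Hmgcs1 (869.8 CPM), Mvk (192 CPM), Pmvk (149.5 CPM), Mvd (100.4 CPM), Fdps (146 CPM), Fdft1 (189 CPM), Sqle (357 CPM), Lss (226 CPM), Cyp51 (304 CPM), Msmo1 (308 CPM), Nsdhl (77.9 CPM), Ebp (66.9 CPM) and Sc5d (135 CPM). Replicate 4 of WT at time point 6 was far above its group for 13 genes: Mvk (116 CPM), Pmvk (73.0 CPM), Mvd (53.5 CPM), Idi1 (188 CPM), Fdps (73.0 CPM), Sqle (210.4 CPM), Lss (119 CPM), Cyp51 (181 CPM), Tm7sf2 (17.8 CPM), Msmo1 (186 CPM), Nsdhl (44.1 CPM), Sc5d (95.8 CPM) and Stard4 (138 CPM). These libraries also held the highest sums of sebaceous gland, hair follicle and erythrocyte markers of their genotypes, and the part of other cells in these values was not tested. Replicate 1 of RE at time point 6 had the highest sums of these markers in RE too (2063, 188 and 198 CPM), but no sterol gene was flagged in it. Its summed level of the 18 enzymes was 1366 CPM, the lowest of its group, where the highest was 1887 CPM. Other high values in WT were those of Idi1 in replicate 1 of time point 2 (84.5 CPM), Cyp51 in replicate 1 of time point 2 (101 CPM) and Srebf2 in replicate 3 of time point 1 (251 CPM). Low values in WT were those of Fdps in replicate 2 of time point 1 (32.5 CPM), Hsd17b7 in replicate 1 of time point 1 (59.4 CPM), Srebf2 in replicate 3 of time point 3 (203 CPM), Scap in replicate 1 of time point 4 (157 CPM) and Abcg1 in replicate 2 of time point 4 (24.2 CPM). Other high values in KO were those of Mylip in replicate 4 of time point 1 (74.0 CPM) and Abcg1 in replicate 1 of time point 3 (38.2 CPM). Low values in KO were those of Hsd17b7 in replicate 4 of time point 1 (49.7 CPM). Other high values in RE were those of Mvk in replicate 2 of time point 4 (84.2 CPM), Dhcr7 in replicate 2 of time point 4 (99.1 CPM), Idi1 in replicate 1 of time point 3 (115 CPM), Sqle in replicate 1 of time point 1 (155 CPM) and Msmo1 in replicate 1 of time point 1 (155 CPM).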

How the results depend on the processing

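Counts of the 27 genes called under other settings stayed within 1.5 times the reported ones except as follows, and the causes were not tested. Calls over all genes in these fits are given only for the different means without the 3 libraries apart. Elsewhere a general change in calls cannot be told apart from one in these genes. The single rhythmic gene in WT (Sc5d) was lost, leaving 0, with no filter on low counts, voom, without the 3 libraries apart, and without time point 1, 2, 3, 4 or 5. Rhythmic genes in KO rose from 0 to 1 with library totals only, 4 without time point 1 and 1 without time point 3. Those in RE rose from 0 to 1 with DESeq2, without replicate 1 of time point 5 with replicate 2 of time point 6, and without time point 5. Time point as a factor is no separate check of a rhythm. It repeats the test for any difference between time points given above, with 0 genes in WT, 0 in KO and 1 in RE. The 18 genes that differed in mean level between KO and WT were 11 without time point 3 and 10 without time point 5. Between RE and WT the count rose from 0 to 3 with library totals, 1 with those 2 genotypes alone, 7 without the 3 libraries apart and 2 without time point 6. Between RE and KO it went from 11 to 3 without time point 2 and 5 without time point 3 or 5. Genes differing between time points in KO rose from 0 to 1 with a minimum count of 50 and 4 with DESeq2, and the 1 gene in RE became 0 with library totals, no filter and RE alone. Scap, which did not differ between RE and KO (log2 -0.003), was higher in RE with library totals (0.064, adjusted p = 0.0281).

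Leaving out a library gave, for rhythmic genes, 0 to 1 (WT), 0 to 2 (KO) and 0 to 1 (RE), 0 to 1 with a different rhythm between KO and WT, 16 to 20 different means between KO and WT, 0 to 2 between RE and WT and 9 to 13 between RE and KO, and 0 to 5 genes differing between time points in KO and 0 to 1 in RE. Leaving out a replicate number gave 13 to 18, 0 to 2 and 7 to 8 different means in the same order, 0 rhythmic genes in every genotype, and 0 to 2 genes differing between time points in KO and 0 in RE. Over all tested genes the different means in that order were 5227, 748 and 4174 with all libraries. They were 5001 to 5642, 558 to 1021 and 3801 to 4549 without a library. Without a replicate number they were 3420 to 4516, 273 to 390 and 2500 to 3201. Rhythmic genes then were 945 to 1416 (WT), 202 to 737 (KO) and 73 to 675 (RE), against 2031, 1088 and 501.

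With the replicate block 18 genes differed between KO and WT, 10 between RE and KO and 0 between RE and WT, and the rhythmic genes in WT went from 1 to 0. The main models did not pair samples by number. Correlations of deviations between same-numbered animals ran from -0.490 to 0.678 with a median of 0.05. Of the 72 pairs 28 lay above 0.1 and 11 below -0.1. Whether same-numbered animals shared handling was not tested.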
